A study of Mus musculus with 6 samples.

Results

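The 8 miRNAs described here, mmu-miR-122-5p, mmu-miR-192-5p, mmu-miR-194-5p, mmu-miR-216a-5p, mmu-miR-216b-5p, mmu-miR-217-5p, mmu-miR-375-3p and mmu-miR-802-5p (below without the species prefix), are known for their abundance in liver, gut or pancreas, and were chosen by name because the operation under study opens the abdomen. All 8 of 8 were listed in the small RNA libraries, among 1189 entries. The libraries came from the prefrontal cortex of 18-month-old male wild type C57BL/6 mice, with 1 library per mouse and 3 of 13 mice per group. Mice of the PND group were exposed to 1.5% isoflurane for 30 min and then underwent an exploratory laparotomy of 30 min under isoflurane, in which the liver, spleen and intestine were explored. The incision was also treated with lidocaine cream and povidone iodine at the end of the operation and on the days after it. Mice of the CON group received none of these, so anesthesia, operation and wound care cannot be told apart. Both groups took the same behavioural tests and were perfused with saline before dissection, and the sample names carry 17 months instead of 18. Values are counts per 1000000 reads on all entries of a library (CPM), and 1 read was worth between 0.0514 and 0.0673 CPM.

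These miRNAs are made where their host cells switch on a small set of promoters. miR-122 is the dominant miRNA of hepatocytes, where it acts on lipid metabolism. miR-192 and miR-194 are transcribed together in epithelium of the gut, the kidney and the liver. miR-216a, miR-216b and miR-217 come from a shared locus that is active in pancreatic acinar cells. miR-375 is a miRNA of insulin-producing islet cells that is also made in the pituitary and in olfactory and other epithelia, and miR-802 is known from liver, pancreas and gut. Several of them, miR-122 above all, can also be carried in blood plasma.

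The mature sequences show which of these miRNAs could share reads or targets. Those of 6 of the 8 members and of the relative miR-215-5p are given from RefSeq on GRCm38.p6, 5′ to 3′, with the seed (bases 2 to 8, which pair with target transcripts) in capitals.
miR-192-5p: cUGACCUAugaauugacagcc
miR-215-5p: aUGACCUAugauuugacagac
miR-194-5p: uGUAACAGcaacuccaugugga
miR-216a-5p: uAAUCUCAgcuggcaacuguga
miR-216b-5p: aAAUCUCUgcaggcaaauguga
miR-217-5p: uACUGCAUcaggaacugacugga
miR-802-5p: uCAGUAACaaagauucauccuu
miR-192-5p and miR-215-5p shared the whole seed and differed at 3 of 21 bases. miR-216a-5p and miR-216b-5p differed at 4 of 22 bases when aligned from the 5′ end, 1 of them in the seed. No other listed entry with a RefSeq mature sequence shared the seed of miR-194-5p, miR-217-5p, miR-802-5p or either miR-216.

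The loci fall into clusters in this annotation. Mir194-2 and Mir192 lie within 290 bp of chromosome 19, from 6264643 to 6264932 on the plus strand, with no other annotated gene at either hairpin in GENCODE release M21. The same mature miR-194-5p is also encoded by Mir194-1, which lies within 374 bp of Mir215 on chromosome 1 (185313319 to 185313692, plus strand), inside an intron of the protein-coding gene Iars2 on the other strand, where an antisense gene, 2010103J01Rik, overlaps both hairpins. Mir216b, Mir216a and Mir217 span 17645 bp of chromosome 11 (28746191 to 28763835, plus strand). Mir216a and Mir217 lie in an intron of the long non-coding RNA gene Gm12082, and Mir216c lies antisense to Mir216b. Mir375 is on chromosome 1 (74900658 to 74900721, minus strand) and Mir802 on chromosome 16 (93369720 to 93369816, plus strand), both outside other annotated genes.

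The libraries held between 14849461 and 19471226 reads on the entries, and every PND library was deeper than every CON library. Of the forebrain neuron miRNAs, 6 of 6 were read in every mouse, and they summed to between 286963 and 377747 CPM, with miR-128-3p the largest. CON 1 stood apart with 1646 CPM of miRNAs of olfactory and other epithelium, against 67.0 to 198 CPM in the other mice. CON 2 stood apart because miR-128-3p took 29.2% of its reads, against 17.6% to 23.2% in the other mice, which lowers the CPM of other entries. Over the 361 entries that averaged 10 CPM or more, the median log2 fold change of PND against CON was 0.14 in the deposited CPM and 0.018 after scaling with TMM factors, so small rises in the deposited values are read against this shift. Beside each comparison below the value after TMM is given where the direction turns.

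The levels of the 8 miRNAs spanned more than 3 orders of magnitude. miR-192-5p ranked 141st of 1189 by mean level (249 CPM) and miR-194-5p 150th (226 CPM). miR-375-3p ranked 273rd (26.8 CPM) and miR-122-5p 335th (12.6 CPM). The pancreatic miRNAs followed, with miR-216b-5p at rank 437 (3.39 CPM), miR-217-5p at rank 523 (1.55 CPM) and miR-216a-5p at rank 598 (0.861 CPM), next to a median of 0.878 CPM over all entries. miR-802-5p ranked 953rd (0.0774 CPM). Neighbours in this order kept it in all 6 mice, except for 2 pairs that did not differ beyond their spread: miR-194-5p exceeded miR-192-5p in CON 1, and miR-216a-5p exceeded miR-217-5p in CON 2 and equalled it in CON 3. Set against the brain, miR-124-3p, a defining miRNA of neurons, was 17.7 to 25.9 times as abundant as miR-192-5p in the same library and 355 to 536 times as abundant as miR-122-5p. These are read levels, and ligation and amplification can differ between miRNAs.

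**Figure D1:**
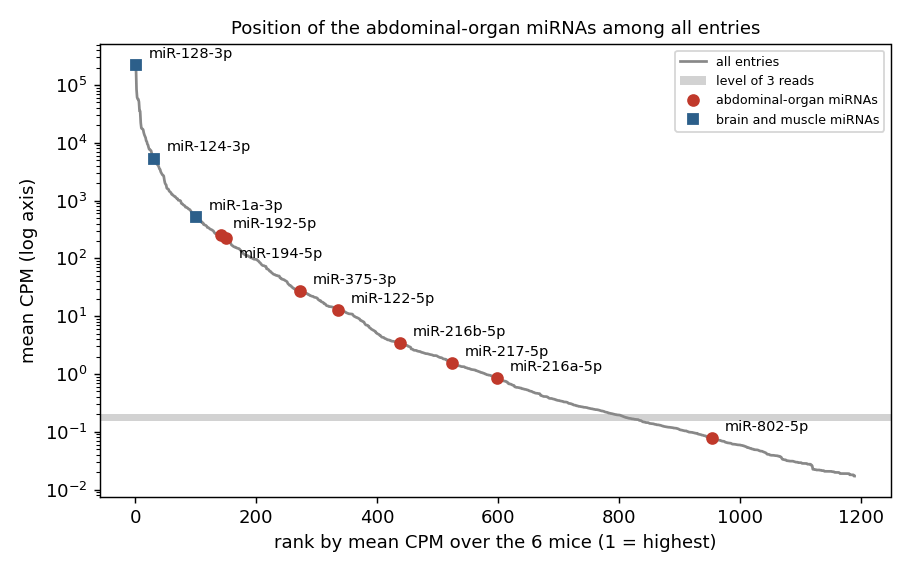
Mean CPM over the 6 mice (vertical, log axis) of all 1189 entries against their rank (horizontal), with the 8 abdominal-organ miRNAs as red points, 3 brain and muscle miRNAs as blue squares, and the level of 3 reads as a grey band. miR-192-5p and miR-194-5p sit at ranks 141 and 150, and miR-802-5p at rank 953 lies below the band.

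Detection was judged against a level of 3 reads, which was between 0.154 and 0.202 CPM. In each library 7 or 8 of the 8 members reached it, 7 in 5 mice and 8 in PND 2. The member below it was miR-802-5p each time. Intervals on single values are exact Poisson intervals at 95%, and they and the 3-read level cover counting error only, since no molecular identifiers are described. Together the 8 miRNAs made up 512, 566 and 615 CPM in PND 1 to PND 3 and 518, 388 and 519 CPM in CON 1 to CON 3, which is 0.0388% to 0.0615% of a library. miR-192-5p and miR-194-5p contributed between 89.9% and 93.3% of that sum. The group means of the sum were 564 ± 51.5 CPM in PND and 475 ± 75.4 CPM in CON (SD, n = 3 each), a log2 ratio of 0.25 that was 0.13 after TMM and 0.12 without CON 2, and the groups overlapped.

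Whether the cortex held more of these miRNAs at the time of harvest, days after the operation, was examined by comparing PND with CON. All 8 had a higher group mean CPM in PND, where 64.3% of all entries did, and all 8 had overlapping groups, where the groups did not overlap for 9.92% of entries. After TMM, 6 of the 8 had a positive fold change, against 51.1% of all entries. Both counts include miR-802-5p, which was at the limit of detection, and members of shared clusters, which are not independent. In limma on log2(CPM + 1), 1 of the 8, miR-217-5p, had an unadjusted p under 0.05, against 5.13% of all entries (4.04% counting those higher in PND alone). Over all entries these were 48 higher and 13 lower in PND, a split that became 34 and 18 after TMM and 32 and 21 with DESeq2 size factors. None of the 8 also reached a log2 fold change of 1 on this scale, which together with the p was met by 0.0841% of entries. With the fold taken between the group means of CPM instead, a limit added after the values were seen, miR-217-5p passed both (2.15-fold), as did 3.53% of entries. None of the 8 had an adjusted p under 0.05 (0.421% of entries). The same member had an unadjusted p under 0.05 after TMM (4.37% of entries) and in edgeR's quasi-likelihood test on recovered reads (4.21% of entries), and none did in DESeq2. The median log2 fold change of the 7 members above the 3-read level was 0.26 (0.057 to 0.69). It was 0.052 for all entries and 0.12 for the 656 with 10 or more reads in at least 3 mice, which include these 7. Over the 361 entries averaging 10 CPM or more it was 0.14. After TMM the medians were 0.14 for the 7 members, 0.0064 for all entries and 0.018 for the 361. With 3 mice against 3, an exact permutation test cannot give a p below 0.1.

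**Figure D2:**
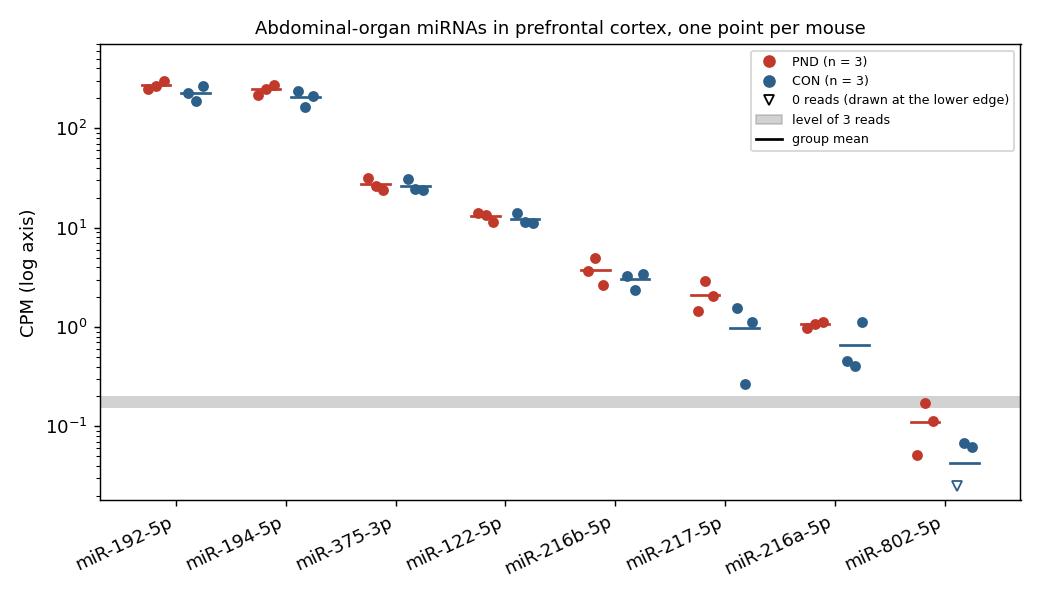
CPM (vertical, log axis) of the 8 miRNAs in each mouse, PND in red and CON in blue, with a bar at each group mean of 3 mice and a grey band at the level of 3 reads; an open triangle marks 0 reads. The groups overlap for all 8 miRNAs, and miR-217-5p and miR-216a-5p have the widest spread in the CON group among the 7 members above the band.

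miR-122-5p, the hepatocyte miRNA, was found in every mouse at a nearly constant level. Its level was 14.1, 13.5 and 11.5 CPM in PND 1 to PND 3 and 14.0, 11.3 and 11.1 CPM in CON 1 to CON 3, from 168 to 274 reads. The highest and lowest mice differed 1.27-fold, and 69.5% of the 361 entries with a mean of at least 10 CPM had a wider range. Against counting error alone, which gives about 1, the chi-square of its reads over the 6 libraries was 2.68 for each degree of freedom. The group means were 13.0 ± 1.33 CPM in PND and 12.1 ± 1.63 CPM in CON (SD, n = 3). In limma the log2 fold change was 0.10, with a standard error of 0.16, a 95% interval of -0.28 to 0.47 and a Benjamini-Hochberg adjusted p = 0.88, and it turned to -0.016 after TMM. An exact permutation test on CPM, two-sided, gave p = 0.5. Read as a fold on the same scale, the interval ran from 0.826 to 1.39, so a doubling in PND lay outside it.

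Blood left in the tissue was looked at because miR-122 circulates. miR-451a, the defining miRNA of red blood cells, had 40.9 CPM in PND 1, and between 0.621 and 3.08 CPM in the other 5 mice. miR-122-5p was at 14.1 CPM in PND 1 and at 14.0 CPM in CON 1, where miR-451a was at 3.08 CPM. The red blood cell list of 5 miRNAs, all listed in the files, summed to 112 to 191 CPM in PND and 84.9 to 117 CPM in CON, with miR-144-3p at 0 in 3 mice and miR-144-5p in 2. The part of blood in the level of miR-122-5p was not tested.

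miR-192-5p and miR-194-5p, a pair known from epithelium of abdominal organs, were by far the most abundant members. miR-192-5p measured 246, 267 and 298 CPM in PND 1 to PND 3 and 229, 186 and 268 CPM in CON 1 to CON 3. miR-194-5p measured 214, 249 and 276 CPM in PND 1 to PND 3 and 240, 163 and 211 CPM in CON 1 to CON 3. CON 2 was the lowest mouse for both, and PND 3 the highest for both. In CON 1, where the list of olfactory and other epithelium summed to 1646 CPM, both lay within the range of the other mice. The part of epithelium in their levels was not tested. Their log2 fold changes were 0.26 (standard error 0.16, 95% interval -0.10 to 0.62) and 0.28 (standard error 0.17, interval -0.12 to 0.67), each with an adjusted p of 0.77 from limma. By the exact permutation test on CPM, two-sided, p was 0.3 and 0.2. After TMM the log2 fold changes were 0.14 and 0.16. Without CON 2 they were 0.12 and 0.12. Without CON 3 that of miR-192-5p was 0.38, with an unadjusted limma p of 0.047 and an adjusted p of 0.66.

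miR-192-5p and miR-194-5p can come from a shared primary transcript, and their ratio stayed near 1. From PND 1 to PND 3 it was 1.15, 1.07 and 1.08, and from CON 1 to CON 3 it was 0.954, 1.14 and 1.27. Its highest and lowest values differed 1.33-fold. The levels themselves ranged 1.60-fold for miR-192-5p and 1.69-fold for miR-194-5p in the deposited CPM, and 1.29-fold and 1.36-fold after TMM, so the ratio was steadier than both levels in the deposited scaling alone. The reads came mostly from the guide strand, as miR-192-3p had 6 reads in all against 25353 for miR-192-5p (99.98% from the 5p arm, exact binomial interval 99.95% to 99.99%). For miR-194, the 3p arm of Mir194-2 was listed, with 15 to 35 reads per mouse, and miR-194-5p was 110 to 326 times as abundant. miR-215-5p, the seed relative from the cluster on chromosome 1, had 32 to 78 reads per mouse, so that miR-192-5p exceeded it 64.4- to 109-fold. Its own log2 fold change was 0.26 with a standard error of 0.24, and its adjusted p was 0.77 in limma.

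**Figure D3:**
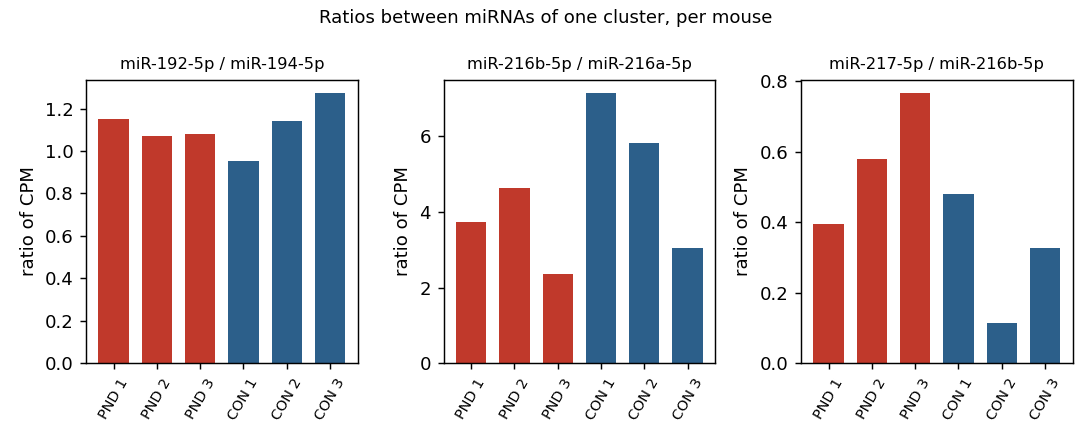
Ratio of CPM (vertical, from 0) in each mouse (horizontal, PND in red and CON in blue) for 3 pairs of clustered miRNAs, each panel with its own scale. The ratio of miR-192-5p to miR-194-5p stays between 0.954 and 1.27, whereas miR-216b-5p to miR-216a-5p runs from 2.35 to 7.14 and miR-217-5p to miR-216b-5p from 0.114 to 0.766.

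miR-375-3p, the islet and neuroendocrine miRNA, had almost the same values in both groups. PND 1 to PND 3 held 31.8, 26.4 and 24.0 CPM and CON 1 to CON 3 held 30.6, 24.2 and 23.9 CPM, from 360 to 619 reads. In each group the mouse numbered 1 was the highest, and the range over all mice was 1.33-fold. In limma the log2 fold change was 0.057, with a standard error of 0.17, a 95% interval of -0.33 to 0.44 and an adjusted p = 0.96. It was -0.060 after TMM and -0.051 without PND 1, and the exact permutation test on CPM, two-sided, gave p = 0.6. In CON 1 the 8 epithelial miRNAs summed to 1646 CPM and miR-200a-3p reached 465 CPM, against 12.2 to 19.4 CPM elsewhere. Its 30.6 CPM of miR-375-3p lay above the 24.2 and 23.9 CPM of CON 2 and CON 3. It lay below the 31.8 CPM of PND 1, whose epithelial sum was 145 CPM. The part of epithelium in the level of miR-375-3p was not tested.

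Of the 7 members above the 3-read level, those of the pancreatic cluster had the fewest reads, and 2 of them, miR-217-5p and miR-216a-5p, had the largest log2 fold changes. For miR-217-5p, PND 1 to PND 3 gave 28, 51 and 36 reads (1.44, 2.90 and 2.03 CPM), and CON 1 to CON 3 gave 24, 4 and 18 reads (1.57, 0.269 and 1.12 CPM). CON 1 exceeded PND 1, so the groups overlapped, and CON 2 lay far below the other mice, with an interval of 0.0734 to 0.690 CPM. The group means were 2.12 ± 0.734 CPM in PND and 0.986 ± 0.661 CPM in CON (SD, n = 3). In limma the log2 fold change was 0.69, with a standard error of 0.29 and a 95% interval of 0.0029 to 1.37. The unadjusted limma p was 0.049 and the adjusted p was 0.77, and after TMM the log2 fold change was 0.63 with an unadjusted limma p of 0.045. Without the pseudocount the ratio of the group means was 2.15, a log2 ratio of 1.11, and edgeR's quasi-likelihood test on reads gave a log2 fold change of 0.99 with an unadjusted p of 0.037 and an adjusted p of 0.82. The exact permutation test on CPM, two-sided, gave p = 0.2. Without CON 2 the log2 fold change was 0.39 and the unadjusted limma p was 0.16. The unadjusted limma p also rose above 0.05 without CON 3, PND 1, PND 2 or PND 3, to values of 0.098, 0.068, 0.18 and 0.13, and it was 0.035 without CON 1.

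For miR-216a-5p, PND 1 to PND 3 gave 19, 19 and 20 reads (0.976, 1.08 and 1.13 CPM), and CON 1 to CON 3 gave 7, 6 and 18 reads (0.458, 0.404 and 1.12 CPM). The PND mice were close together, and CON 3 lay among them. Its log2 fold change was 0.34, with a standard error of 0.18, a 95% interval of -0.077 to 0.75 and an adjusted p of 0.77 in limma, and the exact permutation test on CPM, two-sided, gave p = 0.3. Without CON 3 it was 0.53, with an unadjusted p of 0.0036 and an adjusted p of 0.52 from limma. Its relative in sequence, miR-216b-5p, measured 3.65, 5.00 and 2.65 CPM in PND 1 to PND 3 (71, 88 and 47 reads) and 3.27, 2.36 and 3.42 CPM in CON 1 to CON 3 (50, 35 and 55 reads). PND 1 and PND 2 lay above all CON mice, and PND 3 lay above CON 2 but below CON 1 and CON 3. In limma its log2 fold change was 0.23, with a standard error of 0.23, a 95% interval of -0.31 to 0.76 and an adjusted p of 0.77, and the exact permutation test on CPM, two-sided, gave p = 0.4.

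The opposite arms of the pancreatic hairpins gave a second reading of the same transcripts. Of the 9 opposite arms of the members' hairpins, 5 were listed. In limma 1 of these 5, miR-216a-3p, had an unadjusted p under 0.05, against 5.13% of all entries. miR-216a-3p was read 12, 12 and 8 times in PND 1 to PND 3 and 4, 2 and 6 times in CON 1 to CON 3. Every PND mouse lay above every CON mouse (0.583 ± 0.119 against 0.256 ± 0.119 CPM, SD, n = 3), which held for 7.91% of all entries. Its log2 fold change was 0.34 (standard error 0.11) at an adjusted p of 0.77 in limma, and the exact permutation test on CPM, two-sided, gave p = 0.1, the smallest it allows. The unadjusted p was 0.017 in limma, 0.065 in edgeR's quasi-likelihood test and 0.23 in DESeq2, and in limma it was 0.053 without PND 2 and 0.056 without CON 2. miR-216b-3p, in contrast, had 5 to 7 reads in every mouse, and miR-217-3p had at most 2 reads in any mouse.

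Arm usage differed between the 3 hairpins of the cluster. The 5p arm took 66.9% of the reads of Mir216a (exact binomial interval 58.2% to 74.8%, 89 and 44 reads), 90.1% of those of Mir216b (86.7% to 92.9%, 346 and 38 reads) and 97.6% of those of Mir217 (93.9% to 99.3%, 161 and 4 reads). Over both arms, a sum chosen after the values were seen, Mir216a gave 31, 31 and 28 reads in PND 1 to PND 3 against 11, 8 and 24 in CON 1 to CON 3. In CPM the groups of this sum did not overlap (1.58 to 1.76 against 0.539 to 1.49), but they overlapped after TMM, where PND 3 was at 1.48 and CON 3 at 1.50. The ratio of miR-216b-5p to miR-216a-5p ranged from 2.35 to 7.14 and that of miR-217-5p to miR-216b-5p from 0.114 to 0.766, on few reads (7 and 50 reads stand behind the highest value of the first ratio, and 20 and 47 behind the lowest).

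**Figure D4:**
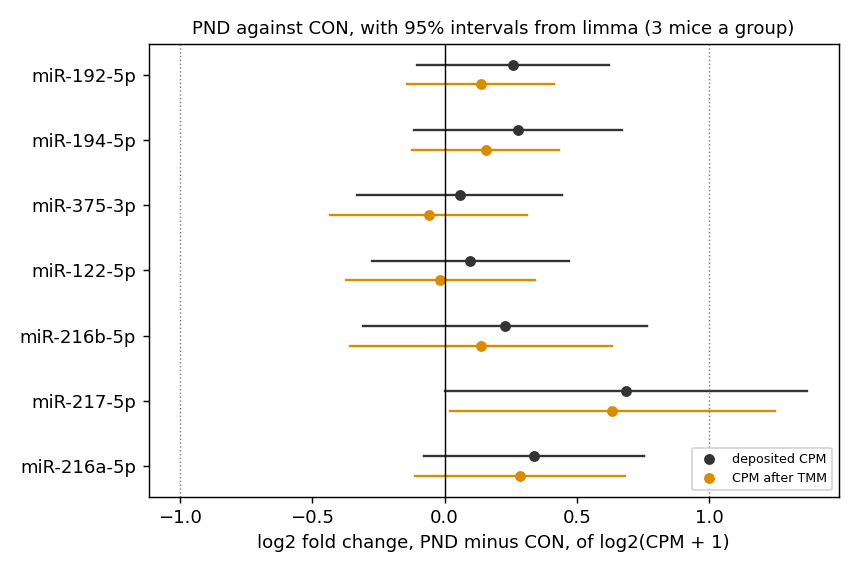
Log2 fold change of PND minus CON on the log2(CPM + 1) scale (horizontal) with 95% intervals from limma, for the 7 miRNAs above the level of 3 reads, from deposited CPM (dark) and after TMM (orange); dotted lines mark 2-fold. With TMM the values of miR-122-5p and miR-375-3p lie just below 0, and miR-217-5p, whose interval starts at 0.0029 in the deposited CPM, is the one miRNA with both intervals above 0.

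miR-802-5p was at the limit of detection. PND 1 to PND 3 gave 1, 3 and 2 reads and CON 1 to CON 3 gave 0, 1 and 1, and PND 2 alone reached 3 reads. In CON 1 a count of 0 allows a level of up to 3 reads, or 0.196 CPM, and the exact Poisson interval reaches 0.241 CPM. A difference between the groups was not detectable at this depth, and no fold change is given.

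Of the 8 members, miR-217-5p alone had a range of at least 1 on the log2(CPM + 1) scale over the mice together with a read in all of them. The abundant miRNAs with the most similar profile, by the root mean square difference of mean-centred log2(CPM + 1) over the 6 libraries, were miR-374b-5p (0.20), miR-299a-3p (0.20) and miR-298-5p (0.21). All 3 were lowest in CON 2, at 79.9, 17.4 and 33.2 CPM, against at least 135, 34.0 and 53.8 CPM in the other 5 mice, as miR-217-5p was. They were picked for likeness over these same libraries, so a low value in CON 2 was built into the choice. As described above, the CPM of other entries in CON 2 is also lowered by miR-128-3p. After TMM, miR-217-5p was at 0.313 CPM in CON 2, against 1.13 to 2.72 CPM in the other mice. The cause of its low value in CON 2 was not tested. In a bulk sample, fewer cells that make a miRNA and fewer copies per cell cannot be told apart.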

How the data were processed

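Small RNA of the prefrontal cortex was sequenced, 1 library per mouse. The authors filtered reads with fastx, aligned them with Bowtie (version 0.12.2 in the submitters' processing notes, which name the builds mm8 and mm9), took known miRNAs by miRBase position, applied TMM and divided by total reads. The rule for reads matching several places is not given in the sources used here. The deposited values are CPM, which the study calls TPM. Each column sums to 1000000 within rounding, so no TMM factor remains in the deposited values. All values (100%) were whole multiples of 1 read within 0.02 reads, so reads were recovered.

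PND and CON were compared over all 1189 entries with limma 3.58.1 (trend) in R 4.3.3 on log2(CPM + 1), a scale that understates changes of low entries. The Benjamini-Hochberg adjustment of p-values covered the whole table. The limits were an unadjusted p under 0.05 and a 2-fold change as in the study, which took the fold from the normalized values themselves. Here it was taken from limma, and from the group means of CPM as an alternative added after the data were seen. Single miRNAs were also compared by exact permutation over the mice (scipy 1.17.1). Alternatives used edgeR 4.0.16 and DESeq2 1.42.0 on the recovered reads, other scalings, filters and pseudocounts, a replicate block, and each library left out. The limma comparison was also tested on simulated reads for PND against CON. These were drawn with a common dispersion for all entries and without the differences in composition seen between the real libraries. There an entry was called only when it passed both limits, the p and the 2-fold change. By this rule limma called 100 of 200 entries changed 4-fold and 0 of 977 left unchanged. Of the changed entries at 10 CPM or more on average it called 61 of 61. The simulation did not score the unadjusted p alone, so it gives no rate of false calls for members counted on that p. On log2(CPM + 1) low entries can hardly reach a 2-fold change, so the count of 0 also depends on that limit. Replicates are separate mice, and no library was a copy of another (between mice of a group, chi-square divided by its degrees of freedom was 120 to 651).

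The members and lists were chosen with earlier results of these data known. The text names the members, their opposite arms, their seed and cluster relatives, marker lists, and the nearest profiles. miRNA positions are those of GRCm38.p6, since the files hold no coordinates.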

Additional observations from a re-analysis of the deposited data

How the results depend on the processing

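The count of members with an unadjusted p under 0.05 was 1 in limma and 0 with a pseudocount of 0.1 CPM, either filter (a mean of 1 CPM or more, or 10 or more reads in at least 3 mice), limma without trend, the replicate block or DESeq2 (where 55, 16, 32, 57, 56 and 28 of all entries tested had such a p), and 0 to 2 with each mouse left out, where 31 to 91 of 1189 entries had such a p (2 members beside 78 entries without CON 3). The cause was not tested. Over all entries, 1 passed both limits in limma, 42 with the fold taken from the group means of CPM, 22 with the pseudocount of 0.1 CPM, 0 without trend, 2 with the replicate block, 32 in edgeR, 11 in DESeq2, and 0 to 1 with each mouse left out. The 5 entries with an adjusted p under 0.05 became 0 with either filter, without trend or with the replicate block, and 0 to 3 with each mouse left out. Same-numbered mice did not deviate together in every pair (correlations of -0.13, 0.12 and 0.51), so the numbers were not taken as pairs. The block ended the call of miR-217-5p (unadjusted p = 0.087).

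The direction of miR-122-5p turned with TMM factors (-0.016), DESeq2 size factors (-0.043), edgeR (-0.013) and DESeq2 (-0.041), and that of miR-375-3p with the same settings (-0.060, -0.089, -0.052 and -0.080), without PND 1 (-0.051) and without CON 3 (-0.0031), within -0.051 to 0.17 over the mice left out. The other 5 members with a fold change kept a positive one in each setting run. miR-802-5p and miR-216a-5p were not tested where a filter removed them. At most 51 reads per mouse stand behind miR-217-5p and miR-216a-5p, which limits what their differences can show.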

Other observations

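miR-194-5p kept a nearly fixed proportion to miR-124-3p, the abundant miRNA of neurons, in all 6 mice. miR-124-3p was 22.4 to 24.7 times as abundant, 23.4 ± 1.05 times in PND and 24.0 ± 1.20 times in CON (SD, n = 3). The highest and lowest ratio differed 1.10-fold, the third narrowest among 360 entries with a mean of at least 10 CPM, whose median was 1.49-fold. For miR-192-5p the ratio varied 1.46-fold, for miR-122-5p 1.51-fold and for miR-375-3p 1.56-fold. This was singled out after the values were seen and is given as a description of these libraries.

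miRNAs known from muscle and other cell types were also listed. The 6 muscle miRNAs of the list, 5 of them listed in the files, summed to 527 to 636 CPM in PND and 441 to 623 CPM in CON, with miR-1a-3p at a mean of 524 CPM and rank 101. White blood cell miRNAs (5 of 5 listed) summed to 305 to 337 CPM in PND and 283 to 333 CPM in CON, and choroid plexus miRNAs (6 of 6 listed) to 1095 to 1122 CPM and 745 to 1237 CPM. Of these 16 entries with a value, 1, miR-142a-5p, had an unadjusted p under 0.05 in limma (log2 fold change 0.51, adjusted p = 0.77), against 5.13% of all entries. Of the 6 forebrain neuron, 8 epithelial, 5 red blood cell and 2 listed seed or cluster entries, none had an unadjusted p under 0.05 in limma, and the median log2 fold change of the epithelial list was -0.97, with CON 1 far above the other mice.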
